A study of Mus musculus with 36 samples.

Results

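The Meis, Pbx and Pknox genes encode homeodomain proteins that bind DNA together with Hox proteins. They were chosen by gene symbol: Meis1, Meis2, Meis3, Pbx2, Pbx3, Pbx4, Pknox1 and Pknox2 were found among the 51734 gene symbols of the count table. All 8 passed the filter on low counts, as did 20511 genes in all. RNA was sequenced at 2 stages of a mouse culture, E14 embryonic stem cells (ESC) and the neural precursor cells (NPC) made from these with retinoic acid, in 6 groups of 3 libraries. Each stage held a wild-type line (WT), a line labelled MLL3/4 dCD (here dCD), in which the histone H3K4 methyltransferases MLL3 and MLL4 lack catalytic activity, and a line labelled MLL2 dTAG (here MLL2dTAG), in which the related enzyme MLL2 carries a degron, a tag through which a compound directs the protein to degradation. The compound, dTAG-13, is labelled as a treatment in all 18 libraries, also those of WT and of ESC, and no comparison isolates it. It was used at 2 µM from day 1 of differentiation, NPC were harvested on day 4, and the NPC groups are labelled with retinoic acid as well. The labels state neither how many clones stand behind a line nor whether replicates were separate cultures. An edit and a difference between lines therefore cannot be told apart, and p-values measure only the spread between these libraries, which may be technical.

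As background, Pbx proteins (the PBC class) and Meis and Pknox proteins (the MEIS class) belong to the TALE homeobox family, named for an extra loop in the homeodomain. A Pbx protein pairs with a Meis or Pknox protein, the pair can join a Hox protein on DNA, and pairing helps to keep Pbx in the nucleus. In the embryo, Meis and Pbx genes act in hindbrain and limb patterning, and Meis genes are known to respond to retinoic acid.

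The stretch of the homeodomain that sets the family apart is shown for each gene, since it is the feature the 8 share and the place where the classes differ. Each sequence is the coding strand, 5′ to 3′, of 30 codons from GENCODE M21 transcripts on mouse build GRCm38. Capitals mark the codons of the loop extension at the start and of the conserved motif of the DNA-recognition helix at the end.
Meis1: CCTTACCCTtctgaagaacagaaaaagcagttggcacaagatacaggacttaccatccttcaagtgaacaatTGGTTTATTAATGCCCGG
Meis2: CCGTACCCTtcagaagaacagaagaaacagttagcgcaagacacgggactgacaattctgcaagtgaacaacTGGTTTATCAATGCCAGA
Meis3: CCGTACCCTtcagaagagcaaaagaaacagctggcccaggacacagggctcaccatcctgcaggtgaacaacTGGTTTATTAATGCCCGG
Pbx2: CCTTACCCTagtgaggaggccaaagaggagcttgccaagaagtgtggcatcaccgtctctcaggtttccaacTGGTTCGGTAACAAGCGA
Pbx3: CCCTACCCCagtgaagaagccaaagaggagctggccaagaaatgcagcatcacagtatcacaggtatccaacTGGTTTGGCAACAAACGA
Pbx4: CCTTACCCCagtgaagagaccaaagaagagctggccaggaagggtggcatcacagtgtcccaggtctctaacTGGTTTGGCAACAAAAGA
Pknox1: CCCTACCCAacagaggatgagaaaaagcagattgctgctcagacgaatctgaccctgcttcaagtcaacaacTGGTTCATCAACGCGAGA
Pknox2: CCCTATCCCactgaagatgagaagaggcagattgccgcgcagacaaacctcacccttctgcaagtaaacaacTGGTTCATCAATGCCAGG

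Over the whole homeodomain of 189 bases, the 3 Meis genes were 82.0% to 84.7% identical to each other. The 3 Pbx genes were 79.4% to 82.5% identical and the 2 Pknox genes 78.3%. Between Meis and Pknox the identity was 65.1% to 71.4%, and between Pbx genes and the others 44.4% to 53.4%. The longest run of bases that any pair of the 8 genes shared over their transcripts was 12 to 42 bases, the longest being between Meis2 and Pknox2.

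On GRCm38, Meis1 lies at chr11:18879817-19018985, Meis2 at chr2:115863064-116065839, Pbx3 at chr2:34171457-34373142 and Pknox2 at chr9:36890982-37147407, all on the minus strand. Meis3 lies at chr7:16175090-16186504, Pbx2 at chr17:34591266-34597400, Pbx4 at chr8:69832491-69872292 and Pknox1 at chr17:31564734-31607693, on the plus strand. All 8 are annotated as protein-coding, and the exon sequence behind a gene's counts ranged from 2.217 kb in Pbx4 to 12.043 kb in Meis2. Some of it is shared with other genes. Meis1 shares 896 exon bases with the antisense gene Gm16140, which had 0 to 6 counts per library, and 1029 with Gm37818 on its own strand, which had 0 to 238. Pbx2 shares 227 exon bases with Gpsm3, which had 39 to 239 counts. The sources used here do not state the strand setting of the counting, so reads from the shared exons cannot be assigned with certainty.

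Libraries held 19.4 to 46.0 M counts, and levels are given as CPM (counts scaled to a common library total, with TMM factors). The targeted transcripts were present in every library, Kmt2b (MLL2) at 167 to 235 CPM, Kmt2c (MLL3) at 161 to 335 CPM and Kmt2d (MLL4) at 151 to 269 CPM. Kmt2c was higher in MLL2dTAG than in WT, by 0.54 ± 0.05 on the log2 scale in ESC (adjusted p = 3.9e-11) and by 0.88 ± 0.05 in NPC (adjusted p = 4.6e-17), and was not called in dCD at either stage. The same edgeR test called Kmt2d higher than WT in MLL2dTAG ESC, by 0.30 ± 0.07 (adjusted p = 7.9e-04). It called Kmt2b higher in MLL2dTAG NPC, by 0.11 ± 0.05 (adjusted p = 0.0406). In both cases the libraries overlapped with those of WT. A degron acts on the protein and catalytic loss need not change the transcript, so these levels check neither label. All 6 stem cell markers had a group mean of 1 CPM or more in every ESC group, but also in every NPC group. Their levels differed, with Pou5f1 at 555 to 623 CPM in ESC as group means. NPC libraries of WT had Pou5f1 at 1.01 CPM, Pax6 at 38.9 CPM, Sox1 at 3.10 CPM and Hes5 at 0.45 CPM, and 5 of 7 neural progenitor markers reached 1 CPM.

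Between WT ESC and WT NPC the cofactors rose together, with Pbx4 as the exception. All 8 genes were called in this comparison at adjusted p under 0.05 by edgeR's quasi-likelihood test with Benjamini-Hochberg adjustment, 7 higher and 1 lower in NPC. Of all 20511 genes tested, 79.5% were called. The median log2 change was 2.17 over the 8 genes and -0.04 over all genes, and 6 of the 8 were called and changed at least 2-fold, as did 43.7% of all genes.

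Meis1, a cofactor of anterior and posterior Hox proteins, was at 1.17, 1.43 and 1.39 CPM in the WT ESC libraries, which is 22, 43 and 41 counts. In WT NPC it was at 222, 214 and 220 CPM. The groups lay far apart, and the log2 change was 7.33 ± 0.07 (SE; adjusted p = 1.1e-40). Meis2, which has its own roles in forebrain and neural crest development, was at 2.02, 2.32 and 1.19 CPM in WT ESC and at 397, 384 and 390 CPM in WT NPC. Its log2 change of 7.74 ± 0.07 (adjusted p = 1.0e-41) was the largest of the 8. The lowest WT ESC library for Meis2, replicate 3, lay well under the other two, so the WT ESC level carries a wide spread (1.84 ± 0.587 CPM, SD, n = 3). Meis3, known from hindbrain patterning, was at 3.62, 3.85 and 3.36 CPM in WT ESC and at 19.5, 20.8 and 20.1 CPM in WT NPC. It began as the highest Meis gene in ESC by CPM and rose least of the Meis genes, by 2.48 ± 0.10 on the log2 scale (adjusted p = 2.4e-22).

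**Figure D1:**
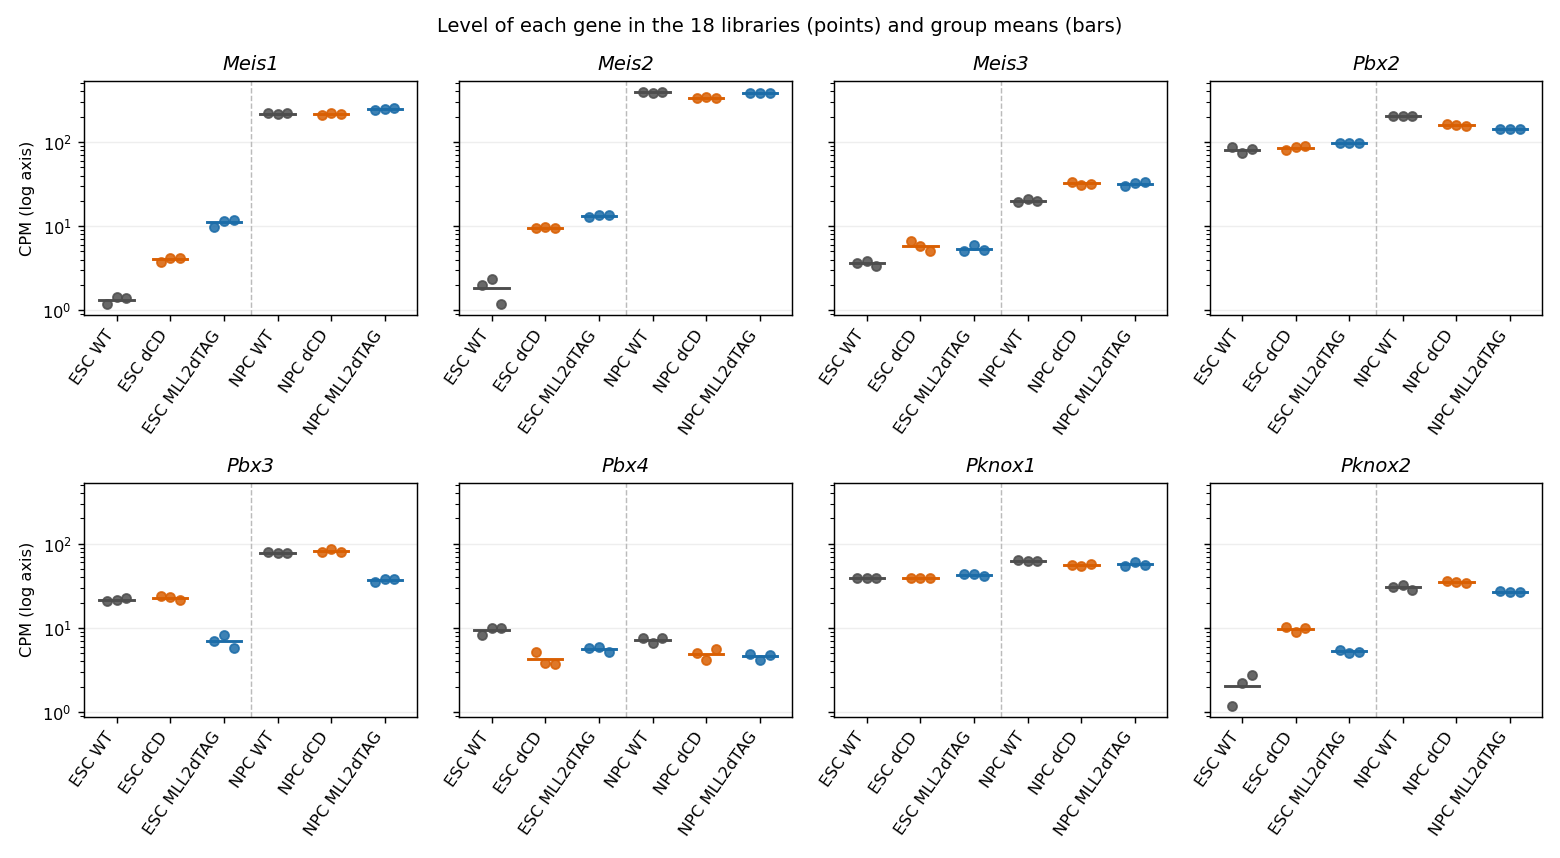
Level of each of the 8 genes in CPM (log axis) in the 18 libraries. Points are libraries, bars are means of the 3 libraries of a group, and the dashed line parts ESC from NPC. Meis1 and Meis2 climb from 1.33 and 1.84 CPM in WT ESC to 219 and 391 CPM in WT NPC, and Pbx3 is lowest in MLL2dTAG at each stage.

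Among the Pbx genes, Pbx2 was already high in WT ESC, at 87.7, 73.4 and 83.5 CPM, and reached 206, 203 and 203 CPM in WT NPC. The log2 change was 1.33 ± 0.05 (adjusted p = 1.8e-24). Pbx3 went from 20.9, 21.2 and 22.5 CPM to 79.7, 76.9 and 77.9 CPM, a log2 change of 1.85 ± 0.06 (adjusted p = 1.0e-24). Pbx4, whose known site of expression is the testis, was the only one of the 8 to be lower in NPC. It was at 8.31, 9.85 and 9.89 CPM in WT ESC and at 7.63, 6.55 and 7.49 CPM in WT NPC, a log2 change of -0.39 ± 0.12 (adjusted p = 0.00486). That call was lost with a correction for GC content and length, where the change was -0.24, and its adjusted p over 29 alternatives ran from 9.6e-04 to 0.0766.

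Pknox1 and Pknox2, also called Prep1 and Prep2, differed from each other in level and in change. Pknox1 was even across replicates, at 38.8 to 39.7 CPM in WT ESC and 62.0 to 63.9 CPM in WT NPC, and rose by 0.68 ± 0.05 on the log2 scale (adjusted p = 1.3e-15). Pknox2 was at 1.17, 2.22 and 2.72 CPM in WT ESC and at 30.7, 32.2 and 28.6 CPM in WT NPC. Its log2 change of 3.83 ± 0.11 (adjusted p = 2.6e-26) came after those of Meis1 and Meis2.

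The order of the genes also changed with the stage. Levels of different genes were compared as CPM per kb of exon sequence. In WT ESC, Pbx2 stood first at 22.4 ± 2.01 CPM per kb (SD, n = 3), followed by Pknox1 at 5.66, Pbx4 at 4.22, Pbx3 at 3.53 and Meis3 at 1.14. Pknox2 at 0.20, Meis2 at 0.15 and Meis1 at 0.13 CPM per kb closed the order, and the ranges of these neighbours overlapped. In WT NPC, Pbx2 still led at 56.0 ± 0.481 CPM per kb, now followed by Meis2 at 32.4 and Meis1 at 20.8. Pbx3 at 12.8, Pknox1 at 9.04 and Meis3 at 6.35 came next. Pbx4 at 3.26 and Pknox2 at 2.95 CPM per kb came last with overlapping ranges. With the longest transcript as the length, Meis2 instead of Pbx2 led in all 3 NPC groups and Pbx3 stood above Pbx4 in WT ESC, so the top place in NPC rests on which exon length is used.

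Among the Meis genes, taken without the Pknox genes, the make-up turned over. Meis3 held 80.4% ± 1.70 (SD, n = 3) of the summed Meis CPM per kb in WT ESC and 10.7% ± 0.479 in WT NPC. Meis2 held 10.7% ± 2.63 in WT ESC and 54.5% ± 0.293 in WT NPC. In ESC of the edited lines the make-up lay between these, with Meis3 at 60.8% ± 3.65 in dCD and 44.2% ± 1.93 in MLL2dTAG. In NPC of both edited lines Meis3 held a larger share than in WT, 17.4% ± 0.875 in dCD and 15.5% ± 0.738 in MLL2dTAG, and the ranges of the libraries did not overlap with WT. Pknox2 held 3.35% ± 1.26 of the Pknox sum in WT ESC, 14.3% ± 1.06 in dCD ESC and 24.6% ± 1.12 in WT NPC. With the longest transcript as the length, these Pknox2 shares were 5.70%, 22.5% and 36.3%, in the same order, and Meis3 held 78.7% of the Meis sum in WT ESC and 9.48% in WT NPC.

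**Figure D2:**
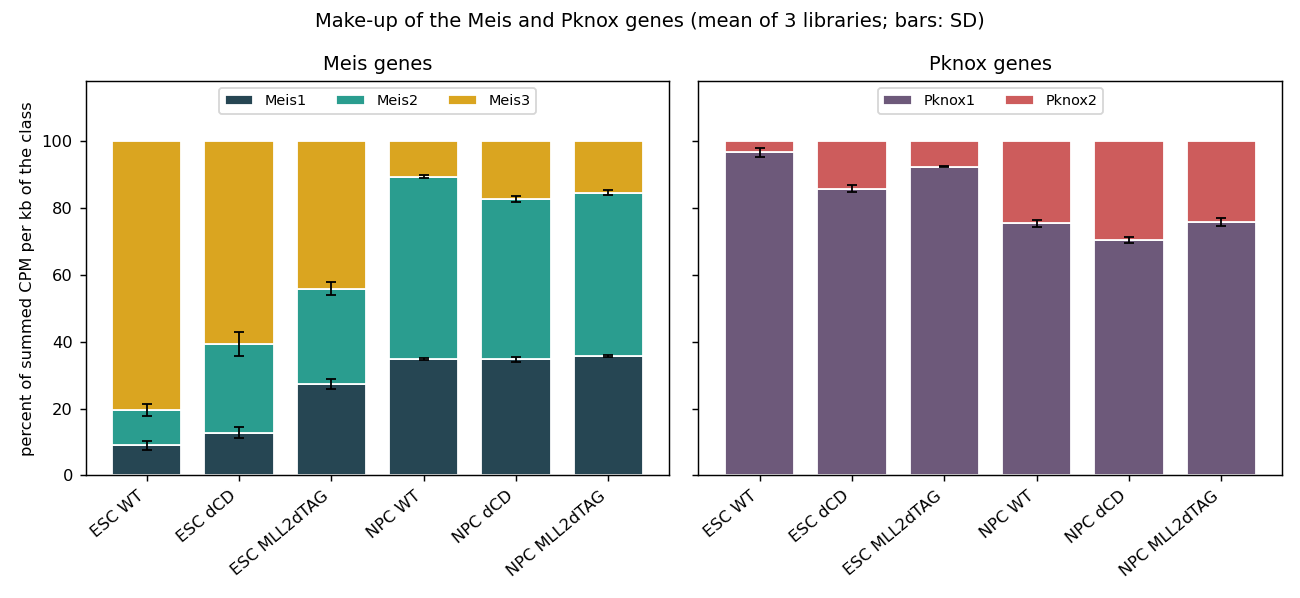
Share of each gene in the summed CPM per kb of exon of the Meis genes (left) and the Pknox genes (right), as means of 3 libraries per group. For the Meis genes the lower error bar is the SD of Meis1 and the upper that of Meis3, and for the Pknox genes the bar is the SD of Pknox1. Meis3 makes up 80.4% of the Meis sum in WT ESC and 10.7% in WT NPC.

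In ESC, the dCD line had higher Meis1, Meis2, Meis3 and Pknox2 and lower Pbx4 than the WT line. In dCD against WT, 5 of the 8 genes were called, 4 higher and 1 lower, where 48.3% of all genes were called. The called genes that changed at least 2-fold were 4 of the 8 cofactors, and 9.51% of all genes. Meis1 was at 3.80, 4.18 and 4.18 CPM in dCD ESC, a log2 change of 1.58 ± 0.14 (adjusted p = 1.5e-11), and its libraries lay above all of WT. Meis2 was at 9.56, 9.86 and 9.40 CPM, a change of 2.39 ± 0.11 (adjusted p = 1.5e-18). Meis3 was at 6.70, 5.84 and 5.03 CPM, a smaller change of 0.69 ± 0.13 (adjusted p = 1.8e-05). Pknox2 stood at 10.3, 8.82 and 10.1 CPM, a change of 2.18 ± 0.14 (adjusted p = 2.4e-15). For all 4 of these genes the dCD libraries were above the WT libraries with no overlap.

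Pbx4 went the other way, at 5.21, 3.81 and 3.73 CPM in dCD ESC (log2 change -1.15 ± 0.14, adjusted p = 9.2e-09), below every WT library. Pbx2, Pbx3 and Pknox1 overlapped with WT in dCD ESC. The 95% interval of the log2 change ran from -0.01 to 0.18 for Pbx2, from -0.06 to 0.23 for Pbx3 and from -0.10 to 0.10 for Pknox1. Pbx2 was called without WT replicate 1 (0.13), without dCD replicate 1 (0.14) and with a correction for GC content and length (0.11), and its adjusted p ran from 0.0209 to 0.836 over the alternatives.

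In ESC of the MLL2dTAG line all 8 genes were called against WT, 6 higher and 2 lower, with 56.9% of all genes called. Again 4 of 8 changed at least 2-fold, against 16.8% of all genes. Meis1 was at 9.82, 11.6 and 11.8 CPM, above both WT and dCD in every library, a log2 change of 3.04 ± 0.11 against WT (adjusted p = 1.0e-22). Meis2 was at 12.7, 13.4 and 13.4 CPM, a change of 2.85 ± 0.10 (adjusted p = 1.2e-22). Even so, Meis1 and Meis2 in these ESC stayed far under their NPC group means of 215 to 391 CPM. Meis3 was at 5.02, 6.02 and 5.17 CPM (change 0.58 ± 0.12, adjusted p = 9.6e-05), close to its dCD values. Pknox2 was at 5.46, 5.09 and 5.20 CPM (change 1.29 ± 0.15, adjusted p = 2.4e-09), between WT and dCD.

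Pbx3 fell in MLL2dTAG ESC. It was at 7.07, 8.20 and 5.82 CPM in MLL2dTAG ESC, below all WT and dCD ESC libraries, a log2 change of -1.63 ± 0.08 against WT (adjusted p = 1.9e-18). Pbx4 was also lower, at 5.79, 5.90 and 5.20 CPM (change -0.75 ± 0.13, adjusted p = 4.7e-06). Pbx2 was at 97.5 to 98.7 CPM (change 0.27 ± 0.05, adjusted p = 6.0e-06). Pknox1 was at 41.7 to 43.8 CPM, a change of 0.13 ± 0.05 (adjusted p = 0.0197). The Pknox1 call was lost with upper quartile factors (0.08), with only the groups compared in the fit (0.12) and without MLL2dTAG replicate 1 (0.12) or 2 (0.12). Its adjusted p over the alternatives ran from 0.00462 to 0.17.

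Markers of other cell types moved at the same time in ESC, where 48.3% of all genes were called in dCD and 56.9% in MLL2dTAG. Called higher were 25.7% and 28.7% of all genes, and called lower 22.6% and 28.2%. The summed level of 6 mesenchyme markers was 454 to 567 CPM in WT, 726 to 815 CPM in dCD and 812 to 868 CPM in MLL2dTAG, most of it Col1a2 and Col1a1, with Tcf21 at 0 counts in WT and MLL2dTAG. In dCD 6 of 6 were called higher, though Tcf21 had only 2 counts per dCD library, and in MLL2dTAG 5 of 6. The sum of 7 neural progenitor markers was 64.6 to 73.0 CPM in WT, 78.0 to 86.2 CPM in dCD and 73.5 to 76.9 CPM in MLL2dTAG, with 3 of 7 at 1 CPM or more in each and Neurog2 at 0 counts in WT and MLL2dTAG. Most of this sum was Nes, which hid larger changes. Sox1 rose from 3.05 CPM in WT to 9.15 CPM in dCD and 11.7 CPM in MLL2dTAG, while Nes fell by 0.19 on the log2 scale in MLL2dTAG. Of the 7, 3 were called higher in dCD (median 0.96), and 3 higher and 1 lower in MLL2dTAG (median 1.36). The 6 stem cell markers summed to 2422 to 2542 CPM in WT, 2462 to 2559 CPM in dCD and 3145 to 3237 CPM in MLL2dTAG. The 5 endoderm markers summed to 13.6 to 15.4 CPM in WT, 9.81 to 10.8 CPM in dCD and 26.3 to 29.2 CPM in MLL2dTAG, and the 4 neural crest markers, mostly Foxd3, to 6.90 to 7.67, 11.7 to 12.7 and 18.2 to 18.7 CPM. Of 6 neuron markers 2 were called higher and 2 lower in dCD, and 1 higher and 4 lower in MLL2dTAG. Of 3 endothelial markers 1 was called lower in dCD, and 2 were called higher and 1 lower in MLL2dTAG. Pecam1 fell from 111 CPM in WT to 79.5 CPM in dCD and 79.9 CPM in MLL2dTAG. It was far lower in WT NPC, at 1.28 CPM. Cdh5 and Kdr rose in MLL2dTAG, from 0.148 to 0.757 CPM and from 0.718 to 1.57 CPM. The part of these in the cofactor changes was not tested, and in bulk RNA more cells of a type and more RNA per cell cannot be told apart.

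In NPC the changes of Meis1, Meis2 and Pknox2 against WT were smaller than in ESC, as tested with the interactions given further on. In dCD against WT, 6 of 8 genes were called, 2 higher and 4 lower, where 53.5% of all genes were called, and 0 of the 8 were called with a change of at least 2-fold, against 11.9% of all genes. Meis3 rose again, at 33.9, 31.1 and 31.9 CPM, a log2 change of 0.68 ± 0.07 (adjusted p = 3.5e-10). Meis2 was at 335, 341 and 336 CPM, below every WT NPC library (change -0.21 ± 0.04, adjusted p = 1.6e-05). Meis1 was at 209, 220 and 215 CPM, overlapping with WT, and the 95% interval of its change ran from -0.10 to 0.05. Pbx2 was at 165, 159 and 157 CPM (change -0.35 ± 0.04, adjusted p = 1.4e-08). Pbx4 was at 5.00, 4.11 and 5.54 CPM (change -0.56 ± 0.13, adjusted p = 2.9e-04), and Pknox1 at 55.1 to 56.7 CPM (change -0.16 ± 0.04, adjusted p = 0.00161). For all 3 the dCD libraries lay below the WT libraries.

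Pbx3 and Pknox2 were less clear in dCD NPC. Pbx3 was at 80.6, 85.7 and 80.5 CPM with a change of 0.07 ± 0.05 (adjusted p = 0.261). It was called with only the groups compared in the fit (0.08) and with the GC and length correction (0.15), and its adjusted p ran from 0.00967 to 0.598 over the alternatives. Pknox2 was at 35.9, 35.1 and 33.8 CPM, above every WT library, with a change of 0.20 ± 0.07 (adjusted p = 0.0248). That call was lost without WT replicate 1 (0.20) or 3 (0.15) and without dCD replicate 1 (0.18) or 2 (0.19), and its adjusted p ran from 0.00212 to 0.143.

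In MLL2dTAG NPC against WT, 7 of 8 genes were called, 2 higher and 5 lower, with 61.7% of all genes called. Pbx3 fell most, to 35.5, 37.8 and 38.1 CPM, with all of its libraries under those of WT and dCD (change -1.07 ± 0.06, adjusted p = 2.8e-18). Pbx2 was at 142, 141 and 143 CPM (change -0.52 ± 0.04, adjusted p = 6.7e-13) and Pbx4 at 4.83, 4.15 and 4.72 CPM (change -0.66 ± 0.13, adjusted p = 2.5e-05), so all 3 Pbx genes fell. Meis3 rose to 29.7, 32.9 and 33.8 CPM, a change of 0.68 ± 0.07 (adjusted p = 2.3e-10).

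The remaining genes had smaller changes in MLL2dTAG NPC, where upper quartile factors lowered the values of all 8. Meis1 was at 239, 247 and 253 CPM (change 0.17 ± 0.04, adjusted p = 1.4e-04), but the change was 0.08 with upper quartile factors, where the call was lost, and its adjusted p ran from 2.7e-06 to 0.0581 over the alternatives. Meis2 was at 387, 381 and 387 CPM (change -0.02 ± 0.04, adjusted p = 0.657). It was called lower with upper quartile factors (-0.11), library totals (-0.10) and only the groups compared (-0.07), with adjusted p from 0.0152 to 0.885 over the alternatives. Pknox1 was at 54.8 to 60.1 CPM (change -0.14 ± 0.04, adjusted p = 0.00544), or -0.23 with upper quartile factors. Pknox2 was at 26.5 to 27.7 CPM (change -0.18 ± 0.07, adjusted p = 0.0338). The Pknox2 call was lost without WT replicate 1 (-0.18) or 2 (-0.14) and without MLL2dTAG replicate 2 (-0.17) or 3 (-0.17), and its value was -0.27 with upper quartile factors, with adjusted p from 2.2e-04 to 0.165 over the alternatives.

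**Figure D3:**
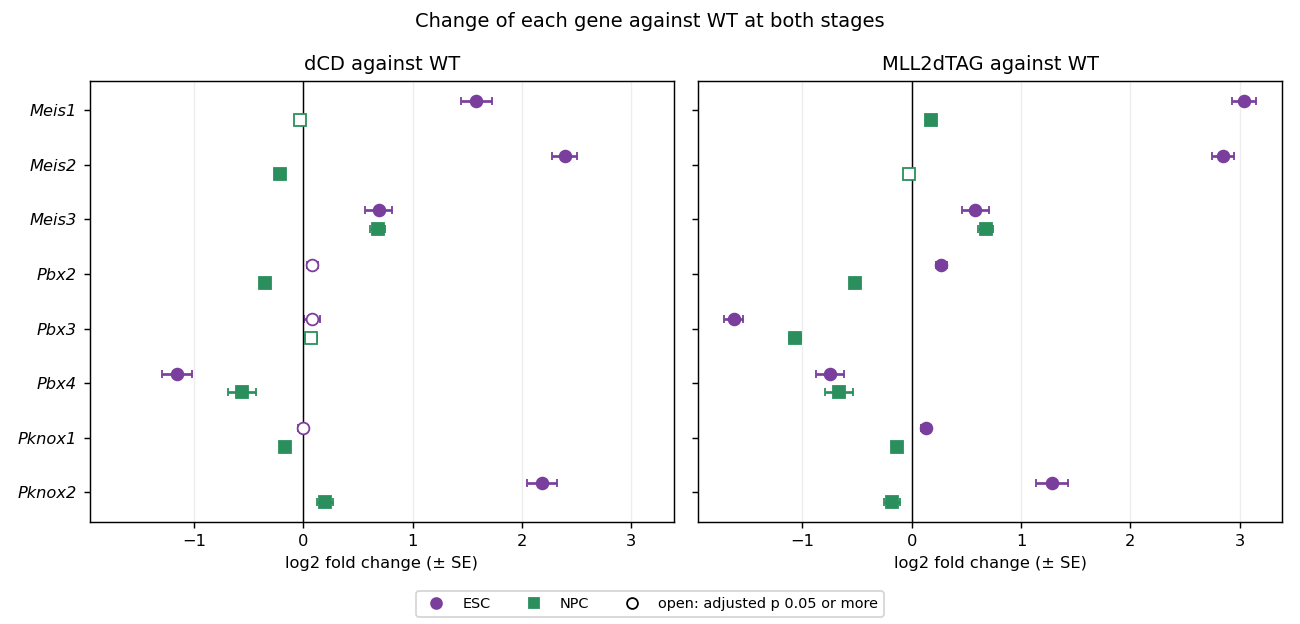
Log2 fold change against WT (x axis, ± SE from the model) of the 8 genes in dCD (left) and MLL2dTAG (right), with circles for ESC and squares for NPC. Open symbols did not pass adjusted p under 0.05. Meis1, Meis2 and Pknox2 lie right of 0 in ESC of both lines, by 1.29 to 3.04, while their NPC squares lie between -0.21 and 0.20.

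Other markers differed in NPC as well, where 53.5% of all genes were called in dCD and 61.7% in MLL2dTAG. Called higher were 26.7% and 33.3% of all genes, and called lower 26.8% and 28.4%. The 6 stem cell markers summed to 28.6 to 29.9 CPM in WT NPC, 40.6 to 41.3 CPM in dCD and 151 to 152 CPM in MLL2dTAG, where 6 of 6 were called higher than in WT. In dCD 1 of the 6 was called higher and 1 lower, with a median of 0.03. Most of the dCD sum was Klf4, at 26.6 CPM against 14.0 CPM in WT. The 5 endoderm markers summed to 203 to 211 CPM in WT, 175 to 183 CPM in dCD and 498 to 510 CPM in MLL2dTAG, and the 3 endothelial markers to 60.3 to 63.0, 43.2 to 47.0 and 213 to 219 CPM. Most of the endothelial sum was Kdr, at 59.5 CPM in WT, 43.8 CPM in dCD and 209 CPM in MLL2dTAG. Pecam1 was at 1.28 CPM in WT and 2.54 CPM in MLL2dTAG, and Cdh5 at 0.92 and 4.52 CPM. The 7 neural progenitor markers summed to 149 to 152 CPM in WT, 313 to 348 CPM in dCD and 207 to 210 CPM in MLL2dTAG, mostly Nes. In dCD 4 of these 7 were called higher. In MLL2dTAG 3 were called higher and 2 lower, with a median of -0.05, Nes at 0.77 ± 0.05 and Pax6 at -0.56 ± 0.07. The 6 neuron markers summed to 268 to 274 CPM in WT, 404 to 435 CPM in dCD, where 4 were called higher, and 263 to 278 CPM in MLL2dTAG. The 6 mesenchyme markers summed to 654 to 673 CPM in WT, 836 to 923 CPM in dCD and 872 to 886 CPM in MLL2dTAG. In MLL2dTAG 4 of these 6 were called lower and 2 higher (median -1.10), with Col1a2 at 21.3 CPM against 153 CPM in WT, Tcf21 at 0.956 against 22.9 CPM and Col3a1 at 716 against 295 CPM. The 4 neural crest markers summed to 16.3 to 18.4 CPM in WT, 24.1 to 25.7 CPM in dCD and 19.1 to 19.8 CPM in MLL2dTAG. Blood markers were near 0 in NPC, at 0.13 to 0.56 CPM summed over 4 genes in all 3 lines, with Ptprc at 0 counts. The part of these marker differences in the cofactor changes was not tested.

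The change from ESC to NPC was also measured within each edited line. In dCD 7 of 8 genes were called, all higher in NPC, and 77.6% of all genes were called. In MLL2dTAG all 8 were called, 7 higher and 1 lower, with 78.2% of all genes called. Meis1 rose by 5.72 ± 0.06 in dCD and 4.47 ± 0.05 in MLL2dTAG, against 7.33 in WT. Meis2 rose by 5.13 ± 0.06 and 4.87 ± 0.05, against 7.74 in WT, and Pknox2 by 1.84 ± 0.09 and 2.36 ± 0.09, against 3.83 in WT. Group means of Meis1 were 215 to 247 CPM in NPC of the 3 lines and 1.33 to 11.1 CPM in ESC. On the log2 scale, though not in CPM, the lines thus lay further apart in ESC. The WT ESC level there rests on 22 to 43 counts per library. Meis3 rose by about the same amount in each line, 2.48 in WT, 2.47 in dCD and 2.57 in MLL2dTAG.

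Pbx2 rose by 0.90 ± 0.05 in dCD and 0.53 ± 0.05 in MLL2dTAG, less than the 1.33 of WT, and Pknox1 by 0.51 ± 0.05 and 0.41 ± 0.05. Pbx3 rose by 1.85 ± 0.06 in dCD and 2.41 ± 0.08 in MLL2dTAG. Pbx4 had a change of 0.20 ± 0.14 in dCD (adjusted p = 0.193) and of -0.30 ± 0.13 in MLL2dTAG (adjusted p = 0.037), both fragile. The dCD value was called without ESC dCD replicate 1 (0.37) and with the GC and length correction (0.33), and adjusted p ran from 0.0315 to 0.551. The MLL2dTAG call was lost with no filter on low counts (-0.30), without ESC MLL2dTAG replicate 1 (-0.28) or 2 (-0.26), without NPC MLL2dTAG replicate 2 (-0.23), by DESeq2 (-0.30) and with that correction (-0.16), and adjusted p ran from 0.00489 to 0.275.

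**Figure D4:**
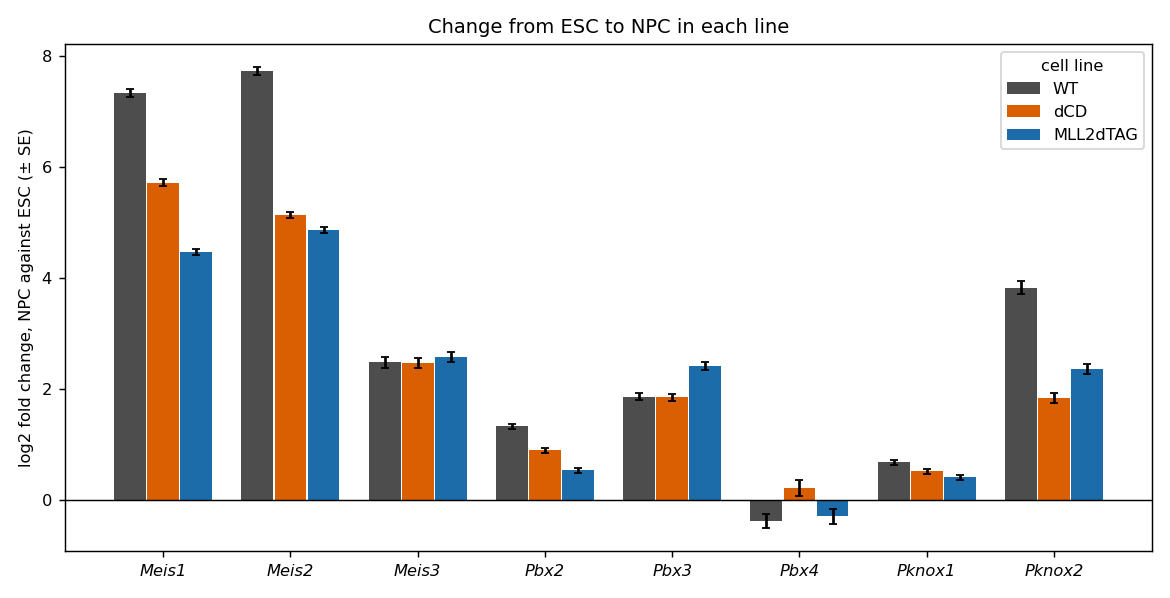
Log2 fold change of NPC against ESC (± SE from the model) for the 8 genes in the WT, dCD and MLL2dTAG lines. Bars for Meis1, Meis2 and Pknox2 are tallest in WT (7.33, 7.74 and 3.83), and those for Meis3 are level over the lines at 2.47 to 2.57.

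Whether an effect of the edited lines differed between stages was tested with an interaction, the change against WT in NPC minus that in ESC. For dCD 6 of 8 genes passed, 5 negative and 1 positive, with 42.9% of all genes called. For MLL2dTAG 6 of 8 passed, again 5 negative and 1 positive, with 49.0% of all genes called. Meis2 had the most negative value in dCD, -2.60 ± 0.12 (adjusted p = 4.9e-19), and Meis1 and Meis2 both had -2.87 in MLL2dTAG. Meis3 had -0.01 in dCD, with a 95% interval from -0.29 to 0.27, and 0.09 in MLL2dTAG, with an interval from -0.20 to 0.38. Pbx3 had 0.56 ± 0.10 in MLL2dTAG (adjusted p = 1.7e-05), since it was further below WT in ESC than in NPC. The dCD interaction of Pknox1, -0.16 ± 0.07 (adjusted p = 0.0461), was lost in 16 of 29 alternatives, 14 of them leaving out 1 of the 18 libraries, with values from -0.18 to -0.15 and adjusted p from 0.0337 to 0.154.

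Setting MLL2dTAG directly against dCD showed where the lines parted. In ESC 7 of 8 genes were called, 5 higher and 2 lower in MLL2dTAG, and 47.2% of all genes were called. Meis1 was higher by 1.46 ± 0.09 (adjusted p = 2.2e-16), Meis2 by 0.46 ± 0.07 (adjusted p = 2.0e-06) and Pbx2 by 0.19 ± 0.05 (adjusted p = 0.00103). Pbx3 was lower by 1.71 ± 0.08, as a log2 change of -1.71 (adjusted p = 7.1e-19), and Pknox2 had a change of -0.89 ± 0.11 (adjusted p = 1.9e-08). Meis3 had -0.11, with a 95% interval from -0.33 to 0.12. Pbx4 was called at 0.41 ± 0.14 (adjusted p = 0.0175) with overlapping libraries, and lost the call without dCD replicate 2 (0.34) or 3 (0.32) and without MLL2dTAG replicate 2 (0.37), with adjusted p from 0.00269 to 0.109. Pknox1 was called at 0.13 ± 0.05 (adjusted p = 0.021), and lost the call without dCD replicate 1 (0.13), without MLL2dTAG replicate 1 (0.13) or 2 (0.12) and with upper quartile factors (0.08), with adjusted p from 0.0148 to 0.174.

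In NPC 5 of 8 genes were called between the lines, 2 higher and 3 lower in MLL2dTAG, with 55.9% of all genes called. Of all called genes 56.5% were higher in MLL2dTAG with TMM factors, 45.2% with upper quartile factors and 45.3% with library totals. Pbx3 had a change of -1.14 ± 0.06 (adjusted p = 5.1e-19), Pknox2 of -0.38 ± 0.07 (adjusted p = 4.2e-05) and Pbx2 of -0.17 ± 0.04 (adjusted p = 8.3e-04). Meis1 at 0.20 ± 0.04 and Meis2 at 0.19 ± 0.04 were higher, or 0.12 and 0.11 with upper quartile factors. Meis3, Pbx4 and Pknox1 had 95% intervals of -0.14 to 0.13, -0.37 to 0.17 and -0.06 to 0.11.

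Hox genes are the best known partners of these proteins. All 15 listed Hox genes of paralog groups 1 to 5 were called higher in WT NPC than in WT ESC, as were 39.1% of all genes. Their median log2 change was 7.68, close to that of Meis1 and Meis2. Their summed level was 4.32 to 4.91 CPM in WT ESC and 733 to 742 CPM in WT NPC. In ESC of dCD 7 of 15 were called higher and none lower, with a sum of 8.61 to 9.65 CPM, and in ESC of MLL2dTAG 5 were called higher and 1 lower, with a sum of 8.60 to 9.69 CPM. Of all genes 48.3% were called in dCD ESC (25.7% higher) and 56.9% in MLL2dTAG ESC (28.7% higher). In NPC of MLL2dTAG, where 28.4% of all genes were called lower and 33.3% higher, 9 of 15 were called lower and 4 higher. In NPC of dCD 8 of 15 were called higher and 4 lower, with a median log2 change of 0.19. There 26.7% of all genes were called higher and 26.8% lower. Among the called genes of the 15 whose mean was at least 5 CPM, Hoxc5 fell most in dCD NPC, -1.40 ± 0.04, from 217 to 82.0 CPM.

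The 24 listed Hox genes of groups 6 to 13 parted between the lines in NPC. In dCD 20 were called higher and 1 lower than in WT, with a median log2 change of 0.85, and in MLL2dTAG 7 were called higher and 13 lower, with a median of -0.39. Of all genes 26.7% were called higher in dCD NPC and 28.4% lower in MLL2dTAG NPC. Hoxc10 was at 19.3 CPM in dCD NPC against 5.07 CPM in WT, and Hoxa9 was at 5.24 CPM in MLL2dTAG NPC against 33.7 CPM in WT. In ESC 17 of 24 were called higher in dCD and 16 in MLL2dTAG, with none called lower in either. Of all genes 25.7% and 28.7% were called higher there. Between WT ESC and WT NPC 16 of the 24 were called higher and 5 lower in NPC, with 39.1% and 40.4% of all genes.

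Of 7 genes that respond to retinoic acid, the agent given to NPC, all 7 were called higher in NPC than in ESC in each line, with medians of 5.86 in WT, 5.94 in dCD and 6.12 in MLL2dTAG. The share of all genes called higher was 39.1% in WT, 38.7% in dCD and 39.9% in MLL2dTAG. Rarb, a retinoic acid receptor, rose from 0.416 to 226 CPM in WT. Against WT NPC, 6 of 7 were called lower in dCD and 4 of 7 in MLL2dTAG, with 26.8% and 28.4% of all genes called lower. Stra6, a retinol transporter, had a change of -0.84 ± 0.06 in dCD and -1.71 ± 0.07 in MLL2dTAG, while Cyp26a1, which degrades retinoic acid, had 0.90 ± 0.04 in MLL2dTAG.

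Other TALE homeobox genes moved both ways. Of 9 listed, 8 were tested, and in WT 4 were called higher and 2 lower in NPC, where 79.5% of all genes were called. Tgif1, a repressor in retinoid and TGF-beta signalling, was the most abundant, and its log2 change from ESC to NPC was -0.73 ± 0.04 in WT. Irx1, an Iroquois gene of that family, rose by 4.42 ± 0.23 from ESC to NPC in dCD, from 0.588 to 12.5 CPM, beside 5.72 for Meis1 and 5.13 for Meis2 in that line. In ESC 3 of the 8 were called higher and 1 lower in dCD, and 4 higher and none lower in MLL2dTAG. Of all genes 48.3% were called in dCD ESC and 56.9% in MLL2dTAG ESC. Irx2 had 0.74 ± 0.12 in MLL2dTAG ESC. Among 10 partners or targets outside the Hox genes, 8 were tested. In WT 3 of these were called higher and 3 lower in NPC, where 79.5% of all genes were called. In ESC 5 were called higher and 1 lower in dCD, and 6 higher and 1 lower in MLL2dTAG, with the shares of all genes just given. Zfp703, a zinc-finger repressor, rose by 5.36 ± 0.10 from WT ESC to WT NPC, and Pbxip1, which encodes a Pbx-binding protein, by 1.62 ± 0.05. Gbx2, known from the boundary of midbrain and hindbrain, was higher in ESC of both lines, by 2.35 ± 0.12 in dCD and 2.73 ± 0.11 in MLL2dTAG.

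The genes whose log2 CPM followed a cofactor most closely over the 18 libraries were sought among 11805 genes whose mean was at least 5 CPM. The libraries fall into 2 stages, and the difference between these held 69.5% to 93.7% of the variance of 7 of the 8 genes and 3.32% of that of Pbx4. For Meis1 they were Zfp810, Exoc7 and Kirrel (Pearson r of 0.997 to 0.998) and for Meis2 Zmiz1, Zfp768 and Ctif (0.996). For Meis3 they were App, Fat4 and Mbd2, for Pbx2 Kdelr1, Osr2 and Olfml2b, and for Pbx3 Fam171b, Micu2 and Adamts19. Pknox1 had Fbf1, Sema3a and Senp7, and Pknox2 had A930024E05Rik, Phf12 and Cxxc4. Pbx4 had no neighbour as close, with Clasrp at 0.910, Ninl at 0.880 and Zfp512 at 0.876. Within one stage (9 libraries) the coefficients of these neighbours differed. Those of Meis1 were 0.984 to 0.985 in ESC and 0.299 to 0.680 in NPC, and those of Pbx3 were 0.975 to 0.987 in ESC and 0.992 to 0.995 in NPC. Those of Pbx4 were 0.883 to 0.934 in ESC and 0.873 to 0.885 in NPC.

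Promoter windows of 300 bases, 250 before to 50 after the start, were held by a RefSeq table on GRCm38 for 5 of the 8 genes: Meis1, Meis2, Meis3, Pbx2 and Pbx4. No match was found in these 5, on either strand, to the Meis core site TGACAG, the Pbx-Hox site TGATTNAT, the Pbx-Pknox site (TGAT joined to TGACAG, so it contains the first) or the retinoic acid receptor core site AGGTCA. Over 32851 promoters, 19.2%, 3.22%, 0.222% and 16.3% held them. Some of the 5 windows may miss the start of the gene. Of the 250 bases before the start, 170 in Meis2, 160 in Meis3 and 133 in Pbx4 are annotated as exon. Those of Meis2, Meis3 and Pbx2 lie inside the annotated gene. The ratio of observed to expected CpG was 0.589 in Meis1, 0.666 in Meis2, 0.688 in Meis3, 0.882 in Pbx2 and 0.799 in Pbx4, against a median of 0.384 over all promoters.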

How the data were processed

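The deposited values were raw counts for each gene symbol, not normalized by the authors. HTSeq is named for them per the submitters' processing notes. Per the labels' protocols, libraries were made with a TruSeq Stranded mRNA kit. For these libraries the aligner, strand setting and genome build are not given in the sources used here. Sample columns were identified from their names. Another 18 columns of per-sample values, with repeated or unmatched names, and 18 of 36 listed samples in 8 of 14 groups were not used here. The 8 genes and the gene lists were chosen with earlier results of these data known. Other genes of the families are not reported here.

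Genes were filtered with filterByExpr, leaving 20511, and scaled with TMM factors of 0.967 to 1.05. An edgeR 4.0.16 quasi-likelihood model (R 4.3.3, limma 3.58.1) with a mean for each of the 6 groups used all 18 libraries (12 residual degrees of freedom, common biological variation of 4.01%). Tests were two-sided with Benjamini-Hochberg adjustment over all genes, and adjusted p under 0.05 was called. The script was tested on simulated data. Alternatives were other scalings, filters, tests (DESeq2 1.42.0, limma-voom), halved counts, a replicate block, only the groups compared, each library left out, and, chosen after seeing the data, offsets for GC content and length, which covered 96% of tested genes, and the longest transcript as the length.

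Named genes were the 8, the targeted genes, up to 2 highest and 2 lowest called genes per list whose mean was at least 5 CPM, and 3 neighbours by Pearson correlation of log2 CPM (prior count 2). Total counts of 19.4 to 46.0 M put 3 counts, the floor for a count of 0, at 0.0652 to 0.154 CPM, which covers counting error only. All 37 mitochondrial genes were at 0 counts, and 60.8% to 66.5% of counts from 1 to 10 were even. Chi-square over its degrees of freedom was 2.19 to 10.5 in the 18 replicate pairs, with each count taken as independent. Counts that come in pairs, which was not tested, would raise this ratio by themselves. Spread beyond sampling noise is therefore not shown for the lowest pairs.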

Additional observations from a re-analysis of the deposited data

Results flagged for a closer look

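The interaction test, the change against WT in NPC minus that in ESC on the log2 scale, passed for 12 pairs of gene and line at adjusted p under 0.05 (edgeR's quasi-likelihood test). In dCD the values were -1.61 ± 0.15 (SE) for Meis1, -2.60 ± 0.12 for Meis2 and -1.99 ± 0.16 for Pknox2, each with a rise in ESC that was absent or small in NPC. Pbx2 had -0.43 ± 0.06 and Pknox1 -0.16 ± 0.07, both lower than WT in NPC, and Pbx4 had 0.59 ± 0.19, with a larger fall in ESC than in NPC. In MLL2dTAG the values were -2.87 ± 0.12 for Meis1, -2.87 ± 0.11 for Meis2 and -1.47 ± 0.17 for Pknox2. Pbx2 had -0.79 ± 0.06 and Pknox1 -0.27 ± 0.06, each above WT in ESC and below it in NPC. Pbx3 had 0.56 ± 0.10.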

How the results depend on the processing

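Each of the 88 values, 8 genes in 11 comparisons, was recomputed under 29 alternatives. Of 2552 values, 2467 kept their direction and their side of the threshold, 43 lost a call, 10 gained one and 32 changed sign, all 32 being uncalled in both settings. The call of 75 of the 88 results did not change, and the other results are named with their values in the report. The sign changes came in 9 results near 0, and their cause was not tested. Pknox1 for dCD in ESC became 0.012 with DESeq2 size factors, 0.0014 with library totals, 0.0169 with no filter and 0.0129 by DESeq2, and ran from -0.0089 to 0.0074 with a library left out. Pknox1 for MLL2dTAG against dCD in NPC became -0.0578 with upper quartile factors, -0.0568 with library totals, -0.0338 with no filter and -0.0319 with only the groups compared (-0.0187 to 0.0522 with a library left out). In that comparison Meis3 became 0.0031 with halved counts and 0.0564 with the GC and length offsets (-0.0403 to 0.0484 with a library left out), and Pbx4 ran from -0.2122 to 0.0016 with a library left out. Meis2 for MLL2dTAG in NPC became 0.0202 with those offsets. The dCD interaction of Pbx3 became 0.0836 with them (-0.0622 to 0.0332 with a library left out), and that of Meis3 ran from -0.1163 to 0.0926 with a library left out. In the MLL2dTAG interaction Meis3 became -0.0005 with no filter, and Pbx4 -0.0032 with library totals and -0.0101 with no filter. No count of genes called moved by 1.5 times or more under any alternative run. With upper quartile factors the median of all genes from ESC to NPC in MLL2dTAG moved from 0.00 to -0.11, so small changes there are relative to that shift. Same-numbered libraries did not deviate together (45 pairs, r from -0.03 to 0.03), so the replicate numbers were not taken as pairs. With the replicate number as a block, 9761 genes against 9909 were called for dCD in ESC, and the only change of call among the 8 genes was Pknox1 in the dCD interaction (-0.16, adjusted p = 0.0556). Depth limits Meis1, Meis2 and Pknox2 in WT ESC, at 22 to 80 counts per library.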
